A study of Drosophila pseudoobscura and Drosophila ananassae and Drosophila yakuba with 13 samples.

Results

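Small nucleolar RNA (snoRNA) genes were compared between testis and ovary in D. ananassae and D. pseudoobscura. They are the entries of the authors' 2 deposited tables whose symbol begins with the prefix snoRNA, and they number 76 of the 11576 genes listed for D. ananassae and 27 of the 11946 genes listed for D. pseudoobscura. In both tables every one of these symbols is completed by a serial identifier, such as GF26098 or GA29836. None of the 76 and none of the 27 symbols names a methylation or a pseudouridylation guide, no symbol occurs in both tables, and no coordinates or sequences of these genes were at hand. The genes could therefore be described by tissue, level and serial number, not by guide class, host gene or orthology.

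Small nucleolar RNAs are short noncoding RNAs of the nucleolus. Box C/D snoRNAs guide methylation of ribose and box H/ACA snoRNAs guide pseudouridylation, mostly at sites of ribosomal RNA, and a few act in cleavage of its precursor. In flies many of them are cut from the introns of host genes, and their mature forms generally carry no poly(A) tail. In the ovary, nurse cells make large amounts of ribosomes that are passed to the oocyte.

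Gonads of wild-type virgin flies without Wolbachia were dissected at 6 to 10 days of adult age, and polyadenylated RNA was sequenced. D. ananassae (strain 14024-0371.13, grown at 25 °C) had 2 testis and 2 ovary libraries, and D. pseudoobscura (strain 14011-0121.94, grown at 20 °C) had 2 testis and 3 ovary libraries. D. yakuba, with 4 of the 13 libraries of the series, was not analysed here. The labels do not say whether the libraries of a tissue came from separate flies, so the p-values measure the spread between these libraries, which may be technical. Species and temperature cannot be told apart.

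The deposited tables hold 1 fold change, 1 average and 1 test per gene. Values per library were not at hand, so depth per library is unknown and neither a spread between replicates nor a confidence interval on counts could be given. A log2 fold change is testis over ovary throughout, so a negative value means a lower level in testis. This direction is not in the file headers and was read from the order of tissues in the tables' titles. Genes listed as markers of the tissues lay on that side of 0: the testis gene TrxT was testis-biased in D. ananassae and in D. pseudoobscura. Pof, a chromosome-wide regulator that was also listed for testis, was testis-biased in D. ananassae. The ovary genes nos, plu and rhi in D. ananassae and dhd, bcd and swa in D. pseudoobscura were ovary-biased. Some of these genes had also been used to read the direction, so they are no separate evidence of it. A gene is called testis-biased or ovary-biased here where the authors' adjusted p was under 0.05.

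Nearly every listed snoRNA gene had a lower level in testis than in ovary. In D. ananassae 73 of the 76 were ovary-biased, 2 were testis-biased and 1 was not called, in a table where 53.8% of all genes were ovary-biased and 31.7% testis-biased. In D. pseudoobscura 26 of the 27 were ovary-biased and 1 was not called, where 44.1% of all genes were ovary-biased and 29.6% testis-biased. Among genes with a rescaled log2 average under 3, a range that holds all 76 members of D. ananassae and 26 of the 27 of D. pseudoobscura, the ovary-biased shares were 49.8% and 47.0%, and the testis-biased shares 27.8% and 31.2%. The rescaled average is the authors' average expression brought to a sum of 1000000 within each table. These counts describe the listed genes and do not stand for all snoRNA genes of either genome. The authors' filter on low values is not given in the sources used here, and a gene that passed it through the ovary libraries alone had to differ between the tissues. In whole gonads, fewer cells with these RNAs and less of the RNA per cell cannot be told apart. Neither can be told apart from a difference between the tissues in how the poly(A) selection retained RNAs without a tail, which was not tested.

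The folds were large in both species. Their median in the authors' deposited table was -6.75 in D. ananassae (interquartile range -7.60 to -5.41), against -0.93 for all genes and -0.87 for genes with a rescaled log2 average under 3. In D. pseudoobscura the median in the authors' deposited table was -9.26 (interquartile range -9.65 to -8.47), against -0.85 for all genes and -1.31 for those with an average under 3. Folds below -5 were listed for 63 of the 76 members, beside 936 of all 11576 genes and 426 of the 3242 with an average under 3. In D. pseudoobscura they were listed for 24 of the 27, beside 2184 of all 11946 genes and 992 of the 3295 with an average under 3. Since the median gene of each table is itself below 0, the shift was subtracted as well, which gave medians of -5.82 and -8.41. No snoRNA gene called ovary-biased changed sign after that step in either species. Implied testis levels, set out below, were under -7 for 24 of the 27 members of D. pseudoobscura and 23 of the 76 of D. ananassae. Folds that rest on such levels, the D. pseudoobscura medians among them, do not measure how much less RNA testis had.

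**Figure D1:**
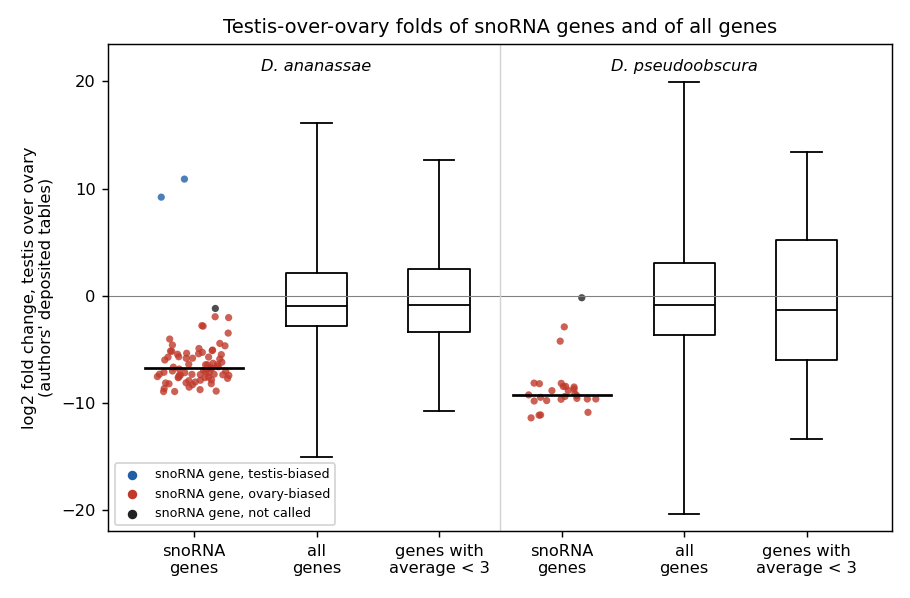
Log2 fold change of testis over ovary in the authors' deposited tables for each snoRNA gene (points, with a bar at the median) beside all genes and genes with a rescaled log2 average under 3 (boxes with median and quartiles, whiskers to the lowest and highest gene). The snoRNA genes gather around -6.75 in D. ananassae and -9.26 in D. pseudoobscura, with 2 of D. ananassae far above 0. Most folds of D. pseudoobscura rest on very low testis levels and do not measure how much less RNA testis had.

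The snoRNA genes were among the least abundant entries of both tables. Their rescaled log2 average ran from -1.08 to 2.83 in D. ananassae, with a median of -0.29 that stood at the 7.58 percentile of all genes. In D. pseudoobscura it ran from -0.98 to 8.23, with a median of 0.18 at the 10.9 percentile. The lowest averages of any gene were -1.51 and -2.12, so members lay close to the lower edge of each table. The protocol selected polyadenylated RNA. Whether the reads came from mature snoRNA, from longer precursors or from introns of host transcripts was not tested, and the counting is not stated to use strand.

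A level in each tissue was worked out from the fold and the rescaled average, taking the average as the mean over libraries. These implied log2 levels are approximate where a tissue has few reads, since a fit then places the level near a lower edge that depends on its settings. In both tables genes piled up at such an edge: 585 genes of D. ananassae had an implied ovary level from -8 to -7 and 8 genes one from -6 to -5. Testis of D. ananassae showed no such pile, with 59 genes from -8 to -7, 56 from -7 to -6 and 106 from -6 to -5. Of those 59 genes, 20 were snoRNA genes. In testis of D. pseudoobscura, 268 genes lay from -9 to -8 and 297 from -8 to -7, against 62 from -10 to -9. A further 41 lay from -11 to -10, 19 from -12 to -11 and 14 from -13 to -12. The low edge there therefore means this pile of genes, not the lowest level of any gene. A fold that rests on a level this low reflects a very low level in the libraries of that tissue, which were selected for poly(A). It is neither a bound nor a measure of how much less of the RNA the tissue had.

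In D. pseudoobscura 24 of the 27 snoRNA genes sat in a narrow band at this low edge in testis, with implied testis levels from -8.83 to -8.13. An implied testis level under -7 was found for these 24, or 88.9% of the members, against 5.87% of all genes of the table and 17.2% of those with an average under 3. Among ovary-biased genes with an average under 3 the share was 36.6%, against 92.3% of the 26 ovary-biased members. That set includes snoRNA genes and was not matched to them on level, with a median average of 0.51 against 0.15. Since the testis level is worked out from the fold and the average, these shares are no evidence apart from the folds. A member that passed the authors' filter through the ovary libraries alone had to have a low testis level. The SD of the implied testis level over the 24 genes was 0.18, whereas their ovary levels ran from -0.25 to 3.15 with an SD of 0.95. Their folds in the authors' deposited table ran from -11.4 to -8.16. With testis levels this close together, differences between these folds are by construction differences in ovary level. The 5 most negative folds in the authors' deposited table were those of GA29836 at -11.4, GA29840 at -11.2, GA29837 at -11.1, GA29873 at -10.9 and GA29879 at -9.83. Their implied testis levels were -8.25, -8.55, -8.39, -8.66 and -8.45, while their ovary levels were 3.15, 2.60, 2.73, 2.23 and 1.38.

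In D. ananassae the testis levels were spread out rather than gathered in a band. Of the 73 ovary-biased members, 23 had an implied testis level under -7, between -8.26 and -7.01. That is 30.3% of the 76 members, against 0.691% of all genes and 2.25% of genes with an average under 3. Among ovary-biased genes with an average under 3 the share was 4.53%, against 31.5% of the 73 ovary-biased members. That set includes the members and was not matched to them on level, with a median average of 0.65 against -0.31. As in D. pseudoobscura, these shares restate the folds and may depend on the authors' filter. The other 50 lay between -6.87 and -0.53. The ovary levels of the 73 genes ran from -0.17 to 3.81, and the SD over the genes was 1.81 for the testis level and 0.97 for the ovary level. The 5 most negative folds in the authors' deposited table were -8.95 for GF26098, -8.94 for GF26121, -8.90 for GF26122, -8.76 for GF26020 and -8.66 for GF26171. The testis levels of GF26098, GF26121, GF26122 and GF26020 were between -8.22 and -7.88, and that of GF26171 was -6.80. Among the most abundant members, GF26068, with the highest average of the 76, had an implied level of -2.63 in testis and 3.81 in ovary. GF26199 had -2.92 in testis and 3.28 in ovary. Their folds in the authors' deposited table were -6.44 and -6.20, with approximate standard errors of 0.46 and 0.43, taken as the absolute fold divided by the square root of the likelihood-ratio statistic. The number and depth of libraries behind the 2 tables are not the same or not known, and whether the species differ was not tested.

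**Figure D2:**
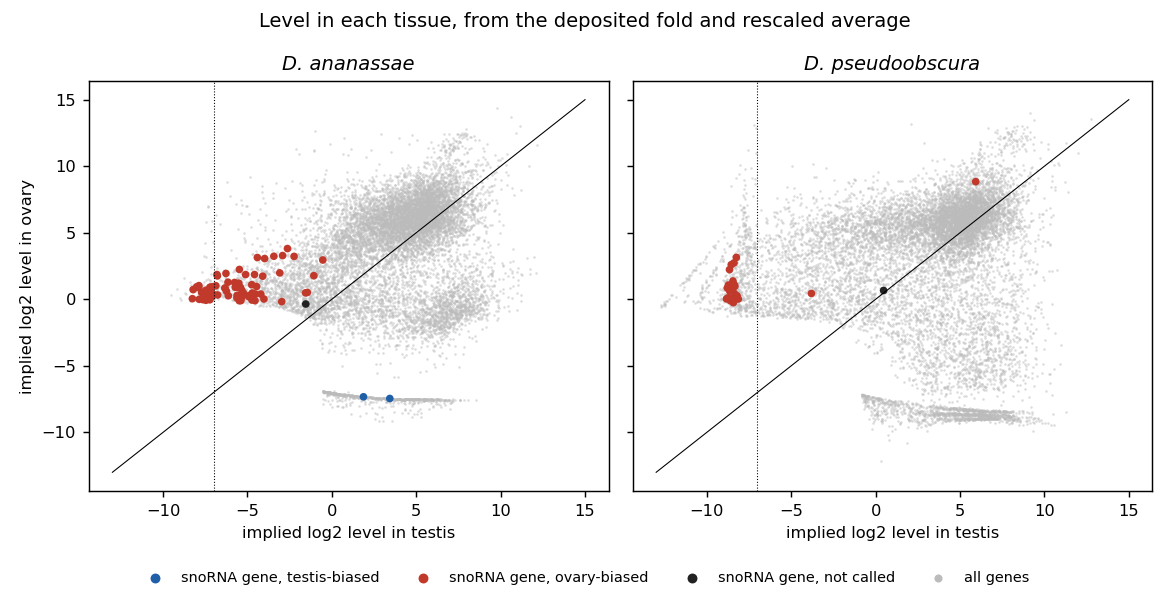
Implied log2 level in testis (horizontal) and ovary (vertical) for each snoRNA gene and for all genes, in units of the rescaled average, with the line of equal levels and a dotted line at a testis level of -7. In D. pseudoobscura 24 snoRNA genes form a column between -8.83 and -8.13 in testis, and in D. ananassae ovary-biased members are spread from -8.26 to -0.53.

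A few members stood apart from this pattern. In D. pseudoobscura GA29907 was by far the most abundant, with a rescaled log2 average of 8.23 that ranked 447 of 11946 genes, against 2.41 for the next member, GA29836. Its implied level was 5.93 in testis and 8.84 in ovary. Its fold in the authors' deposited table was -2.91, a 7.51-fold lower level in testis, with an approximate standard error of 0.68 and an adjusted p = 3.44e-05 in the authors' edgeR test. With Bonferroni adjustment over the table this call was lost (adjusted p = 0.216). GA29880 was ovary-biased with a fold of -4.24 in the authors' deposited table (approximate standard error 0.79), and its implied level of -3.80 in testis was well above the low edge, at an ovary level of 0.44. GA29941 was the only member not called, at -0.19 in the authors' deposited table (approximate standard error 0.69, adjusted p = 0.812 in the authors' edgeR test). Its implied levels were 0.47 in testis and 0.66 in ovary, a difference smaller than the standard error of its fold. Relative to the median gene its fold was 0.66. Reads of host or overlapping genes cannot be told apart from those of the snoRNA for these or any other members.

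In D. ananassae the exceptions towards testis were GF26162 and GF26076. Their folds in the authors' deposited table were 10.9 and 9.20, with adjusted p = 9.53e-06 and adjusted p = 0.00577 in the authors' edgeR test. GF26162 had an implied level of 3.43 in testis and -7.46 in ovary, and GF26076 had 1.87 in testis and -7.33 in ovary, so both lay in the band where genes pile up at the low edge in ovary. Their likelihood-ratio statistics in the authors' deposited table were 20.3 and 8.02. Of 13 ovary-biased genes with nearly the same average and absolute fold as GF26076 (within 0.5 and 1 on the log2 scale), none had so small a statistic. The lowest, 71.3, was that of the snoRNA gene GF26171, since other members were not left out of the match. Of 70 genes with the same match but higher in testis, 26 had a statistic as small or smaller, and the median was 9.74. For GF26162 the same match gave 73 genes higher in testis with a median of 36.5, of which 14 were at or below its value, and 3 genes higher in ovary with a lowest value of 166. The spread between the testis libraries behind these statistics could not be examined. With Bonferroni adjustment over the table neither gene kept its call (adjusted p = 0.0777 for GF26162 and adjusted p = 1.0 for GF26076).

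**Figure D3:**
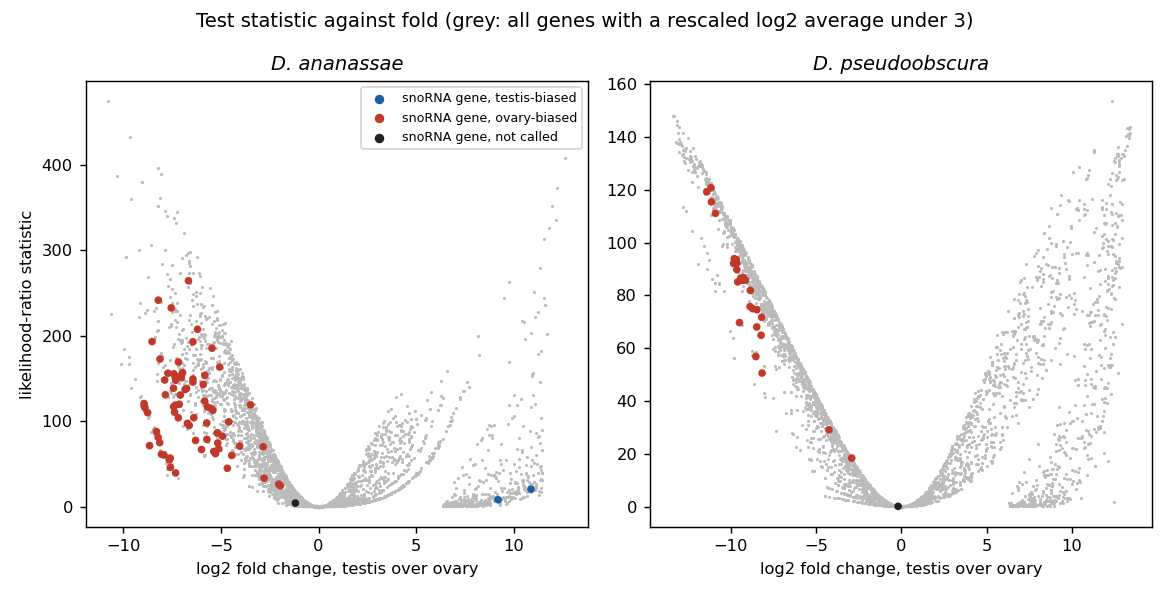
Likelihood-ratio statistic against log2 fold change of testis over ovary in the authors' deposited tables for snoRNA genes (coloured) and for all genes with a rescaled log2 average under 3 (grey). GF26162 and GF26076 lie at 20.3 and 8.02 on the right of the D. ananassae panel, with no ovary-biased member beyond -8.95 on the left, and GA29907, coloured as a member although its average is 8.23, lies at -2.91 in the other panel.

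The 3 called members closest to 0 in D. ananassae were GF26109 at -1.96, GF26108 at -2.04 and GF26153 at -2.79 in the authors' deposited table, with approximate standard errors of 0.40, 0.40 and 0.48. GF26107 was not called, at -1.19 in the authors' deposited table (approximate standard error 0.59, adjusted p = 0.0519 in the authors' edgeR test), and stood at -0.26 relative to the median gene. GF26111, at -2.84 in the authors' deposited table, came next. The implied levels of GF26107, GF26108, GF26109 and GF26111 were -1.54, -1.56, -1.45 and -1.07 in testis and -0.36, 0.48, 0.51 and 1.77 in ovary. Together with GF26173, at -0.53 in testis and 2.95 in ovary, they had the 5 highest testis levels of the members with negative folds. With a minimum of 4-fold the call of GF26109 was lost. The third-smallest called fold of D. pseudoobscura, -8.16 for GA29854 in the authors' deposited table, was already that of a gene at the low edge, with an implied level of -8.13 in testis and 0.02 in ovary.

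Serial numbers were used in place of shared symbol stems, which these symbols do not have. They may follow the order of annotation along a genome, but positions were not at hand, so a run of numbers is not shown to be a cluster of genes. D. ananassae had 12 runs of at least 3 consecutive numbers with 46 members, and D. pseudoobscura had 4 with 12 members. In some runs the folds in the authors' deposited table lay close together. They were between -2.04 and -1.19 for the 3 genes GF26107 to GF26109, between -8.31 and -7.09 for GF26060 to GF26062, between -8.95 and -7.43 for GF26096 to GF26098 and between -9.58 and -8.47 for GA29822 to GA29824. Testis levels were low in the runs from GF26060 (-8.26 to -6.76), GF26096 (-8.01 to -7.26) and GA29822 (-8.59 to -8.42). In D. pseudoobscura 24 of the 27 members shared such a level, consecutive or not, so close folds there are not particular to a run. Other runs held very different folds in the authors' deposited table, from -6.97 to 9.20 for GF26074 to GF26076, from -8.66 to -3.49 for the 6 genes GF26168 to GF26173 and from -9.83 to -4.24 for GA29878 to GA29880. The median difference in fold between members with consecutive numbers was 1.07 over 43 pairs in D. ananassae, against 1.60 over all 2850 pairs of members. In D. pseudoobscura it was 1.10 over 13 pairs, against 1.27 over 351. Consecutive entries may be similar copies that share reads, which was not tested, so the values of single members of a run are uncertain.

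**Figure D4:**
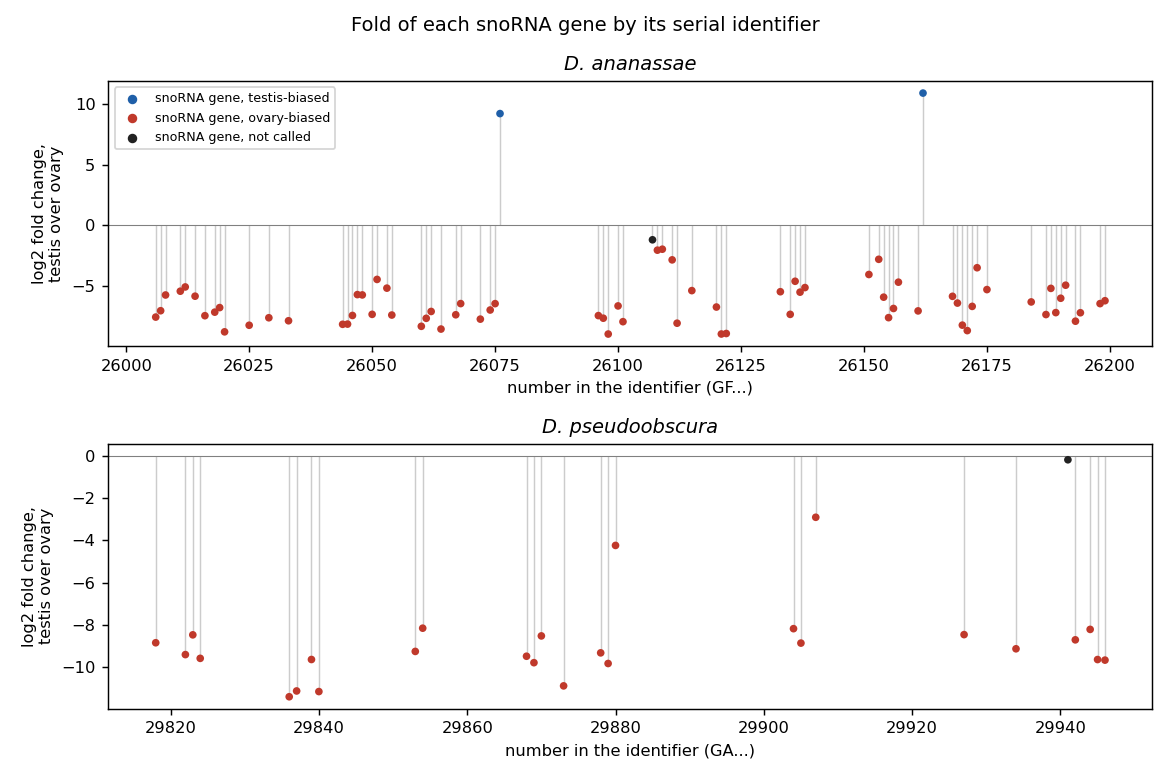
Log2 fold change of testis over ovary in the authors' deposited tables for each snoRNA gene, in the order of the number in its identifier. Most members lie below -5 along the whole series, with the small folds of GF26107, GF26108, GF26109 and GF26111 near each other. The testis-biased GF26076 lies next to ovary-biased GF26074 and GF26075.

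Implied levels of other noncoding RNA genes were set beside those of the snoRNA genes. Spliceosomal snRNA genes, whose products form the core of the splicing machinery, had implied testis levels from -6.52 to -0.06 over 21 genes in D. ananassae and from -6.36 to -2.80 over 12 genes in D. pseudoobscura. All 21 and all 12 were ovary-biased in the authors' deposited tables, and so were all 46 entries of 5.8S ribosomal RNA in D. ananassae and both in D. pseudoobscura. None of the 21 and 12 snRNA genes had a testis level under -7. The ovary levels of these snRNA genes, from 0.00 to 3.09 and from -0.29 to 0.51, overlapped those of the ovary-biased snoRNA genes. Of the 46 entries of 5.8S ribosomal RNA in D. ananassae 1 was under -7, with testis levels from -8.33 to -2.78 and ovary levels from 0.11 to 1.57. The 2 entries of D. pseudoobscura had testis levels of 0.09 and 0.13 and ovary levels of 5.93 and 5.95. The gene for RNase P RNA, part of the enzyme that trims tRNA precursors, was ovary-biased in D. ananassae, with a fold of -4.95 in the authors' deposited table, with implied levels of -2.31 in testis and 2.64 in ovary. The tRNA entries were not all ovary-biased. Of the 5 in D. ananassae 3 were ovary-biased and 2 not called, with testis levels from -4.09 to -0.19. The symbols of these 5 all end in Psi, a suffix that those of D. pseudoobscura lack and whose meaning was not given. Of the 3 in D. pseudoobscura 0 were called, with folds from -4.45 to 7.69 in the authors' deposited table and testis levels from -5.84 to 0.20. These families hold near-identical copies that can share reads, and whether they differ from snoRNA genes was not tested.

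Ribosomal RNA, the main target of snoRNA guides, was called in both directions in D. ananassae but not in D. pseudoobscura. The median 5.8S fold in the authors' deposited tables was -5.54 over 46 entries in D. ananassae and -5.83 over 2 in D. pseudoobscura. The 18S entry of D. ananassae was testis-biased, with a fold of 2.26 in the authors' deposited table (approximate standard error 0.27), with implied levels of 9.03 in testis and 6.77 in ovary. That of D. pseudoobscura was not called, at -0.02 in the authors' deposited table (approximate standard error 0.60), with 10.37 in testis and 10.39 in ovary. Ribosomal RNA left in libraries selected for poly(A) depends on how well the selection worked, which was not tested. The same limit applies to the snoRNA genes, whose mature products generally carry no poly(A) tail.

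Of 28 genes for snoRNP core proteins, their assembly factors, ribosomal RNA synthesis and processing and snoRNA hosts, matched by D. melanogaster symbol, 0 were found in D. ananassae and 1 in D. pseudoobscura, since most genes carry identifiers only. It was Nop56, a core protein of box C/D snoRNPs, which was ovary-biased, with a fold of -5.60 in the authors' deposited table (approximate standard error 0.78, adjusted p = 2.91e-12 in the authors' edgeR test). Its implied levels were 4.48 in testis and 10.1 in ovary. Surf6, which encodes a nucleolar protein that acts in ribosome assembly in other species and was picked after its value was seen, was ovary-biased, with a fold of -4.45 in the authors' deposited table (approximate standard error 0.74), with 1.48 in testis and 5.93 in ovary.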

How the data were processed

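RNA of testes and ovaries was measured by sequencing of polyadenylated RNA. The tools named by the submitters' processing notes are edgeR, HTSeq 0.5.4p3, Bowtie2 2.1.0, and Cuffdiff and Cufflinks, both 2.1.0. The sources used here do not give the genome builds, annotation, count filter, normalization or edgeR version. Per the file headers, each deposited table holds a log2 fold change and a log2 average per gene, and the likelihood-ratio statistic, a score in the authors' table, with 1 degree of freedom. Each also holds the authors' p-value and false discovery rate, called adjusted p here, which matched a chi-square tail within 0.495% and a Benjamini-Hochberg adjustment over the whole table within 0.821%. No test was refitted.

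The deposited average, headed as log CPM, summed to 6.69e+06 and 8.09e+06 times 1000000 on the linear scale and was rescaled to a sum of 1000000 in each table. Implied levels solve the fold and the mean over libraries for the 2 tissues. Their arithmetic was checked on made-up values. No stem or shared symbol existed to name further members. The members and gene lists were chosen with earlier results of these data known, and the level of -7, the average of 3 and the runs of numbers after values were seen. Named members are, per species, those not called or testis-biased, the 5 most negative folds, the 3 called folds closest to 0 and the 3 highest averages. Members in the example runs and GF26111, GF26074 and GF26075 were added after values were seen. The RefSeq gene table of D. pseudoobscura (assembly UCI_Dpse_MV25) matched 0 of the 27 members. The scripts ran in Python 3.11.15 with pandas 2.3.3, scipy 1.17.1 and numpy 2.4.6, and plots were drawn with matplotlib 3.10.9.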

Additional observations from a re-analysis of the deposited data

How the results depend on the processing

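The number of ovary-biased snoRNA genes was 72 or 73 in D. ananassae and 25 or 26 in D. pseudoobscura with an adjusted p under 0.01, with Bonferroni adjustment, with at least 4-fold, and with folds centred on the median gene and at least 2-fold. With a rescaled log2 average of at least 0 it was 23 of 25 in D. ananassae and 14 of 15 in D. pseudoobscura, because fewer members were counted. Those members had median folds of -6.72 and -9.64 in the authors' deposited tables. The 2 testis-biased members of D. ananassae became 0 with Bonferroni adjustment, although their unadjusted p in the authors' edgeR test was 0.00463 and 6.71e-06. The fold of GA29941, not called, turned to 0.66 after centring. Implied testis levels under -8 were found for 3 members in D. ananassae and 24 in D. pseudoobscura, and under -6 for 33 and 24. These levels, and the same alternatives for testis-biased members, were added after the data were seen. Medians by guide class and counts by symbol stem were planned but not run, since the symbols hold neither. Replicates could not be left out in turn. No paired analysis was possible because the tables hold no values per library. Unknown depth limits what can be said of testis levels at the low edge.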
